A study of Mus musculus with 6 samples.

Results

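The 10 genes described here encode secreted defence proteins of epithelia. They are lipocalin 2 (Lcn2), cathelicidin (Camp), the beta-defensins Defb1, Defb3, Defb4, Defb6 and Defb14, and the antiproteases Slpi, Wfdc5 and Wfdc12, which belong to the whey acidic protein (WAP) family. They were chosen by symbol, each symbol matched 1 Ensembl identifier, and they make up 10 of the 45513 identifiers of the deposited count table. RNA-seq gene counts came from keratinocytes isolated from the epidermis of 3 control and 3 knockout mice on a C57BL/6 background. All 6 mice carried K14-CreERT, a tamoxifen-dependent Cre recombinase driven by the keratin 14 promoter of basal keratinocytes, and were given chow with 400 mg of tamoxifen citrate per kg. The knockout mice were Lama3flox/flox, with loxP sites around exons 50 to 53 of Lama3, the gene of the laminin alpha chain that anchors basal keratinocytes in laminin 332. The controls are described in the design text as Lama3wt/flox and in the genotype label as wild type. Age and time on tamoxifen are not given in the sources used here.

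Beta-defensins and cathelicidin are small cationic peptides that damage microbial membranes, and some also attract immune cells. Lipocalin 2 withholds iron from bacteria by binding their siderophores, and Slpi inhibits serine proteases such as neutrophil elastase and cathepsin G. Several of these genes are known to be low in resting epidermis and to be raised by wounding or by cytokines of the interleukin 1, 17 and 22 families. Lcn2, Slpi and Camp are also genes of neutrophil granules.

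Total counts lay between 20126395 and 28473479 per library. Lama3 fell to 91.8 ± 10.9 CPM (counts scaled to library size and TMM factor) in the knockouts, compared with 132 ± 15.5 CPM in control mice (SD, n = 3 per group). Leaving out control 1, control 2 or knockout 1 ended this call (edgeR's adjusted p = 0.0620, 0.0584 and 0.0551). The keratinocyte markers summed to between 29167 and 61055 CPM in every library, led by Krt10 and Krt5, so the defining markers of the labelled cell type were present. Of the 11, 4 rose and 1 fell. By the counts of Xist and Ddx3y, control 1, knockout 1 and knockout 2 came from females and the other 3 libraries from males. Rose, fell and called refer to the quasi-likelihood test of edgeR and to p-values adjusted by the method of Benjamini and Hochberg across the 15513 genes that passed the filter on low counts and a threshold of 0.05. Adjusted p-values are from edgeR unless another tool is named.

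The antiproteases and lipocalin 2 rose, while the most abundant defensin fell. Of the 10 genes 4 rose (Lcn2, Slpi, Wfdc5 and Wfdc12), 1 fell (Defb6), 2 were not called (Defb1 and Defb14) and 3 were too low to be tested (Camp, Defb3 and Defb4). Over all genes tested, 17.4% rose and 18.8% fell. These shares are over tested genes, while 3 of the 10 were not tested, so nothing is read from the comparison. Scaling by the upper quartile, which moves the median log2 fold change of all genes from -0.02 to -0.17, left 30.6% of called genes higher against 48.0% with TMM, and the same 4 of the 10 rose. Slpi passed the filter on low counts with 2 of 3 controls past its minimum of 0.403 CPM, Defb14 with 1 and Wfdc12 with none, so Wfdc12 entered the test only through the knockouts. The scale of the changes is set out in the plot of log2 fold changes.

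**Figure D1:**
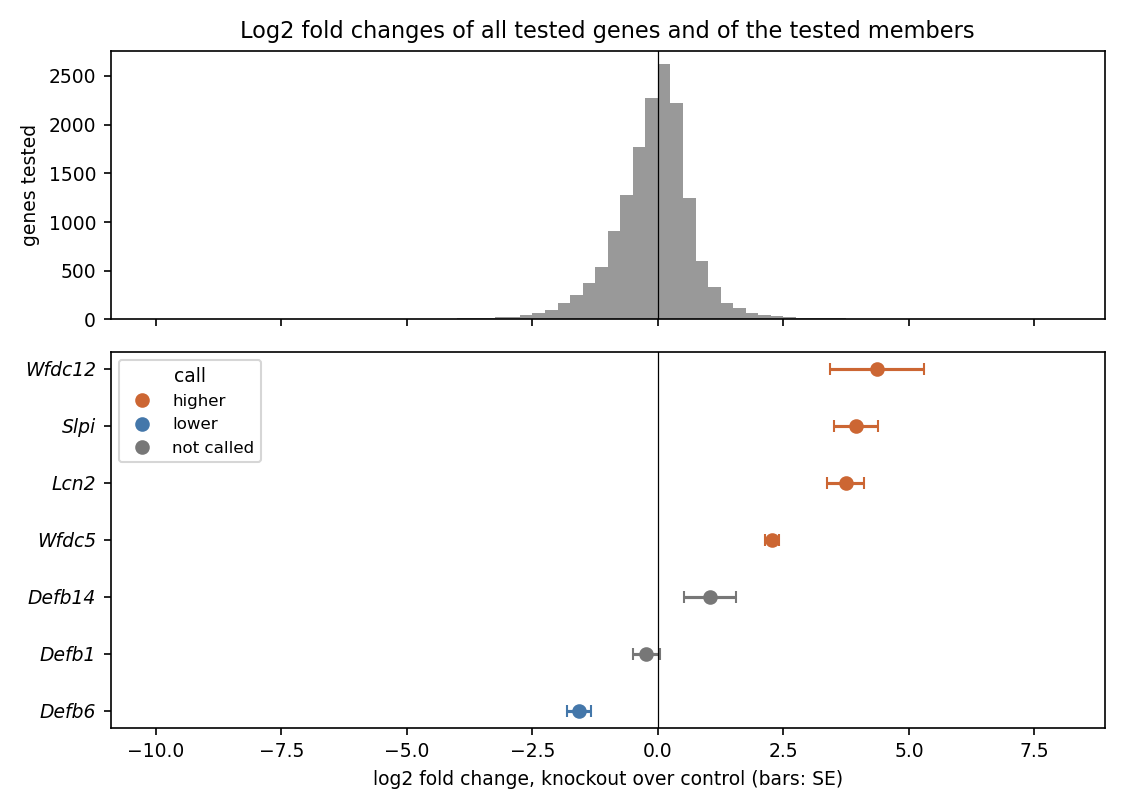
The upper panel is a histogram of the log2 fold change (knockout over control) of all 15513 genes tested. The lower panel gives the 7 tested genes as points with SE bars, coloured by call, from Wfdc12 at 4.36 and Slpi at 3.94 down to Defb6 at -1.57.

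Lcn2 (ENSMUSG00000026822, chromosome 2 of GRCm38, 32384633 to 32388252, minus strand) was measured at 1.25, 2.95 and 2.12 CPM in controls 1, 2 and 3 and at 39.0, 19.0 and 26.5 CPM in knockouts 1, 2 and 3. The groups did not overlap, and the lowest knockout was knockout 2. The rise was 13.4-fold (log2 fold change 3.74, SE 0.37, adjusted p = 0.00127).

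Slpi (ENSMUSG00000017002, chromosome 2, 164354070 to 164389095, minus strand) was measured at 0.560, 0.715 and 0.197 CPM in the controls and at 5.20, 7.54 and 9.62 CPM in the knockouts. All knockouts lay above all controls, and here knockout 1 was the lowest of them. The rise was 15.3-fold (log2 fold change 3.94, SE 0.44, adjusted p = 0.00152) and rested on 5 to 15 counts per control library and 123 to 265 per knockout library.

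Wfdc5 (ENSMUSG00000040154, chromosome 2, 164176327 to 164182742, minus strand) encodes a secreted protein with WAP domains, the fold by which Slpi holds proteases. It stood at 13.7, 11.0 and 11.3 CPM in the controls and at 66.5, 54.3 and 54.8 CPM in the knockouts. Both groups were tight, and the gap between them was several times the spread within either. Its rise of 4.87-fold (log2 fold change 2.28, SE 0.14) had the smallest adjusted p of the 10 genes, 0.000320.

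Wfdc12 (ENSMUSG00000042845, chromosome 2, 164189231 to 164190608, minus strand), another WAP protein, had 2, 2 and 6 counts in the controls and 67, 15 and 157 counts in the knockouts. In CPM these were 0.0861, 0.0953 and 0.236 against 2.83, 0.524 and 5.70. The knockouts differed among themselves by more than for any other gene that rose, with knockout 3 highest and knockout 2 nearest to the controls. The log2 fold change was 4.36 (SE 0.94, adjusted p = 0.0118), and the call was lost with limma-voom (3.75, limma's adjusted p = 0.0507).

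The RNA gene A730032A03Rik lies antisense to both Wfdc5 and Wfdc12 and overlaps exons of both. It was named after its values were seen and rose as well, from 28, 12 and 20 counts in the controls to 40, 47 and 77 in the knockouts (log2 fold change 1.25, SE 0.38, adjusted p = 0.0354). Whether the counting used strand is not given in the sources used here, so reads of the antisense gene and of its partners cannot be told apart. Wfdc5 held 231 to 1572 counts per library, well above the antisense gene, while Wfdc12 did not.

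Camp (ENSMUSG00000038357, chromosome 9, 109847379 to 109849617, minus strand) had 1 count in each control and 0 in each knockout. A count of 0 allows up to 0.127, 0.105 and 0.109 CPM in knockouts 1, 2 and 3, which is above the control values of 0.0393 to 0.0476 CPM. Cathelicidin transcripts were thus at the limit of detection in both groups, and no fold was computed. The limit covers counting error only.

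**Figure D2:**
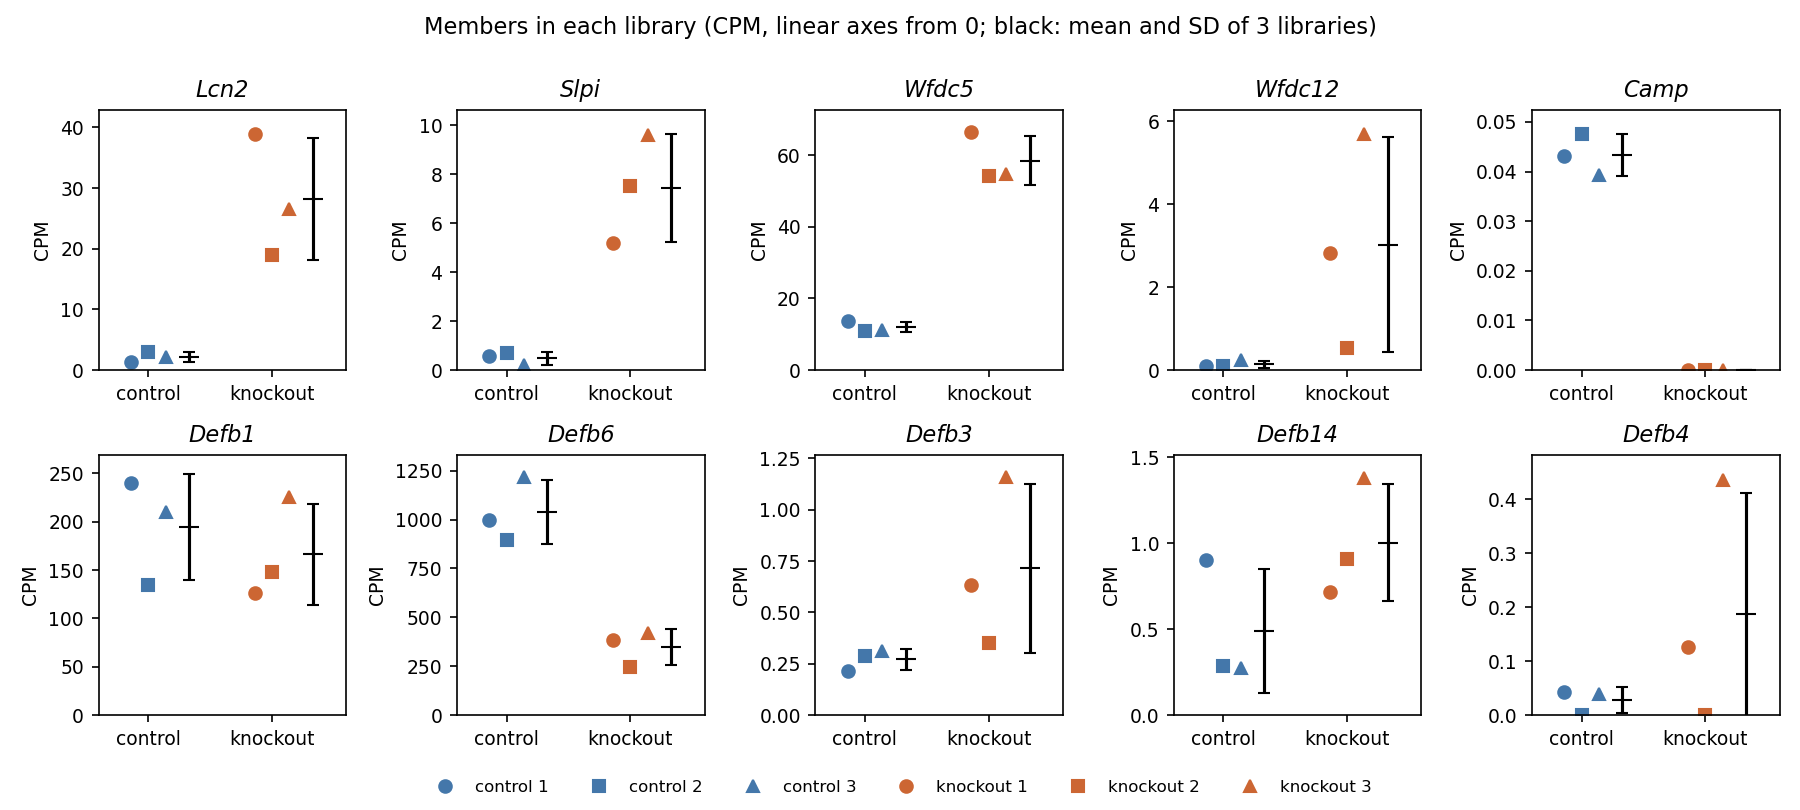
Each panel gives 1 gene in CPM on a linear axis from 0, with a symbol for each of the 3 control and 3 knockout libraries and the mean and SD in black. Lcn2, Slpi, Wfdc5, Wfdc12 and Defb3 show all knockouts above all controls, Defb6 and Camp show the reverse (Camp at 1 count per control), and Defb1, Defb14 and Defb4 overlap. Among all genes tested, 25.2% had all knockouts above all controls and 26.5% had all knockouts below. These shares leave out genes that missed the filter, such as Camp, Defb3 and Defb4.

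Of the 5 defensins, 1 fell, 2 were not called and 2 were not tested. Defb6 (ENSMUSG00000050756, chromosome 8, 19225478 to 19228209, plus strand), a beta-defensin known from skeletal muscle and several epithelia, was measured at 997, 897 and 1219 CPM in the controls and at 382, 244 and 421 CPM in the knockouts. The groups were well apart, with the highest knockout below the lowest control, and knockout 2 lowest. Defb6 fell 2.97-fold (log2 fold change -1.57, SE 0.24, adjusted p = 0.00391).

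Defb1 (ENSMUSG00000044748, chromosome 8, 21776599 to 21795185, plus strand), a constitutive epithelial defensin, was at 240.1, 134 and 210.1 CPM in the controls and at 126, 148 and 225 CPM in the knockouts. The groups overlapped across nearly their whole range. Its log2 fold change of -0.23 (SE 0.27, adjusted p = 0.541) was smaller than its error, which does not show that the level was the same.

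Defb14, Defb3 and Defb4 are defensins that inflamed epithelia are known to induce, and each held few counts. Defb14 (ENSMUSG00000046354, chromosome 8, 19194357 to 19195212, plus strand) had 21, 6 and 7 counts in the controls and 17, 26 and 38 in the knockouts, with control 1 inside the knockout range. Its log2 fold change was 1.03 (SE 0.52, adjusted p = 0.153), and without control 1 it was called higher (1.83, adjusted p = 0.0367).

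Defb3 (ENSMUSG00000039775, chromosome 8, 19293360 to 19295291, plus strand) had 5, 6 and 8 counts in the controls and 15, 10 and 32 in the knockouts. In CPM the controls were at 0.215, 0.286 and 0.314 and the knockouts at 0.634, 0.349 and 1.16, so the groups did not overlap. Among all genes tested, which leaves out Defb3 itself, 25.2% had every knockout above every control. Defb3 missed the filter with all libraries in the fit. With no filter its log2 fold change was 1.41 (adjusted p = 0.0705), and without knockout 2 it passed the filter and was called (1.72, adjusted p = 0.0410). It also passed the filter without each control, and was not called then (adjusted p between 0.131 and 0.177).

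Defb4 (ENSMUSG00000059230, chromosome 8, 19198706 to 19201545, plus strand) had 1, 0 and 1 counts in the controls and 3, 0 and 12 in the knockouts. Most of its reads came from knockout 3, and knockout 2 had none. The longest run of bases that its transcript shares with another annotated beta-defensin transcript is 72, with Defb8. For Defb3, Defb6, Defb1 and Defb14 it is 33, 26, 15 and 13 bases, and all 5 are below the read length of 100 bases. Only exact runs were searched, and the mapping settings are not given. Whether reads were shared between defensins was not tested.

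Knockout 3 was the highest knockout for Slpi, Wfdc12, Defb1, Defb3, Defb4, Defb6 and Defb14, and knockout 1 for Lcn2 and Wfdc5. Knockout 2 was the lowest for Lcn2, Wfdc5, Wfdc12, Defb3, Defb4 and Defb6. The calprotectin genes S100a8 and S100a9 showed the same library as the lowest, with S100a8 at 440.1, 56.2 and 656 CPM in knockouts 1, 2 and 3.

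Levels of different genes were compared per kilobase of exon, as RPKM (CPM divided by the exon length in kilobases). Defb6 led in every library, at 3213 ± 511 RPKM in the controls and 1080.2 ± 287 RPKM in the knockouts (SD, n = 3 each). Defb1 came next, at 223 ± 62.9 and 191 ± 59.8 RPKM, and then Wfdc5, at 5.18 ± 0.644 and 25.2 ± 2.96 RPKM. Lcn2 had rank 6 in the controls at 0.804 ± 0.325 RPKM and rank 4 in the knockouts at 10.7 ± 3.87 RPKM. With the length of its longest transcript in place of all its exons, Lcn2 was at 1.53 ± 0.621 and 20.5 ± 7.38 RPKM, which puts its control mean above that of Defb3.

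In the controls the order went on with Defb14 (2.39 ± 1.77 RPKM), Defb3 (0.989 ± 0.186), Lcn2, Slpi (0.416 ± 0.225) and Wfdc12 (0.179 ± 0.108), and from Defb3 to Wfdc12 each overlapped with its neighbour. In the knockouts Lcn2 was followed by Slpi (6.32 ± 1.87 RPKM), Defb14 (4.91 ± 1.67), Wfdc12 (3.89 ± 3.35) and Defb3 (1.27 to 4.22), and all of these overlapped with their neighbours. Camp and Defb4 were the lowest in both groups.

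**Figure D3:**
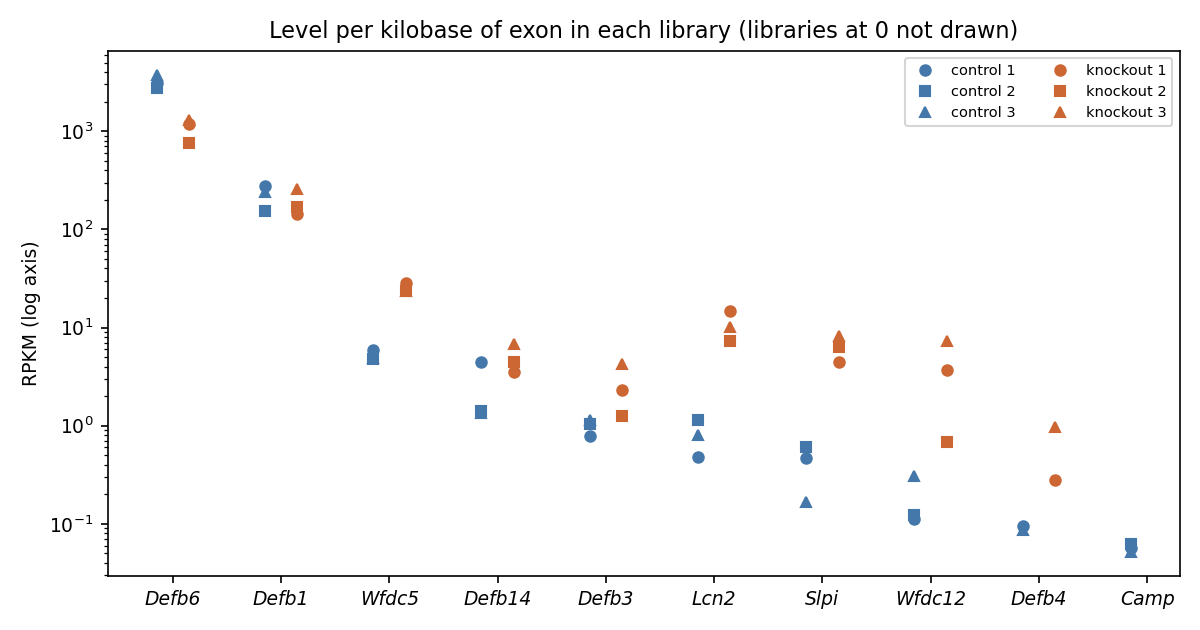
The y axis is RPKM on a log scale, with a symbol for each control (blue) and knockout (orange) library and the genes ordered by their control mean. Libraries at 0 (all knockouts for Camp, control 2 and knockout 2 for Defb4) are not drawn. Defb6 and Defb1 stay far above the others in both groups while Lcn2, Slpi, Wfdc5 and Wfdc12 shift upwards.

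The make-up of the defensin transcripts shifted with the fall of Defb6. The ratio of Defb6 to Defb1 RPKM within a library, which does not depend on library scaling, was 11.2, 18.1 and 15.7 in the controls and 8.21, 4.44 and 5.04 in the knockouts. The groups did not overlap. Defb6 made up 93.4 ± 1.58% of the summed RPKM of the 5 defensins in the controls and 84.2 ± 3.99% in the knockouts, and Defb1 6.47 ± 1.53% and 15.2 ± 3.88%. These shares describe the libraries and were not tested.

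Defb6 and Defb3 lie near each other in the defensin cluster of chromosome 8, and their promoters are alike. Defb6 fell, while Defb3 missed the filter with all libraries in the fit and was not called with no filter (adjusted p = 0.0705). All knockouts lay above all controls for Defb3, as they did for 25.2% of all genes tested. That share leaves out genes that missed the filter, as Defb3 did. The RefSeq promoter sequences of Defb6 and Defb3 (GRCm38.p6, plus strand, the 250 bases before the annotated start, 5′ to 3′) are shown for their likeness. Capitals mark TATATA in both and, in Defb6 alone, a match to the NF-kB consensus.
Defb6, chr8:19225228-19225477: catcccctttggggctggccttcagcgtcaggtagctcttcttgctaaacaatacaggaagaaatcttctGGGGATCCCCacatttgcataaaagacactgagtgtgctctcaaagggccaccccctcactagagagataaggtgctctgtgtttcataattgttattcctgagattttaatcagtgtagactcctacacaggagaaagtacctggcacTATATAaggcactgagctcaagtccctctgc
Defb3, chr8:19293111-19293360: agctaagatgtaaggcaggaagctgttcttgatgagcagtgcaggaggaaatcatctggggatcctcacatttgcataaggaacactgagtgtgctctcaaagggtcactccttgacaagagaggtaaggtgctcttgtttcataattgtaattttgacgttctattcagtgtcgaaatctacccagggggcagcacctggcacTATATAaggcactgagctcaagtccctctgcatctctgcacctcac
The promoters aligned with 192 identical of 235 aligned bases (81.7%), and the longest run they share is 40 bases. TATATA begins 31 bases before the start in Defb6 and 46 bases before it in Defb3. It is found in 5.2% of the 32851 promoter windows of this length, and the NF-kB consensus on either strand in 3.9%. No motif match overlapped another. A match of letters is a description and shows no binding.

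Of the 4 genes that rose, Lcn2, Slpi and Wfdc12 have a promoter entry and are shown because they moved in 1 direction (minus strand, the same window). The RefSeq starts of these 3 genes lie inside the GENCODE spans given above. Capitals mark TTNNGNAA on either strand, letters shared by many sites of the C/EBP factors.
Lcn2, chr2:32387740-32387989: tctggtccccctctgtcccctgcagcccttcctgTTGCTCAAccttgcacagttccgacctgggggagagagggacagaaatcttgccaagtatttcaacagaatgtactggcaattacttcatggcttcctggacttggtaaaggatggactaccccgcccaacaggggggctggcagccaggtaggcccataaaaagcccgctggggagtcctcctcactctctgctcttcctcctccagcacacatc
Slpi, chr2:164356508-164356757: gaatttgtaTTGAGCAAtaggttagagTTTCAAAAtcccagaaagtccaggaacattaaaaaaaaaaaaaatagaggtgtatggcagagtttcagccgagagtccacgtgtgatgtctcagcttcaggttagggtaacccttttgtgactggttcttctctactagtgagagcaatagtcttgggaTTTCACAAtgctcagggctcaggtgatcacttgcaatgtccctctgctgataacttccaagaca
Wfdc12, chr2:164190559-164190808: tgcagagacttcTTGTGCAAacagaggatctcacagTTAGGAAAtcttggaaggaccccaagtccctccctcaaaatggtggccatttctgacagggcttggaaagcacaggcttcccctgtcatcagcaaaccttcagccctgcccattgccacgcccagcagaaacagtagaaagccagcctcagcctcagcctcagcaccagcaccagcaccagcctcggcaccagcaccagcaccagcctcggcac
TTNNGNAA was found 1 time for Lcn2, 3 times for Slpi and 2 times for Wfdc12, and also 3 times for Defb6 and 2 times for Defb3, against 36.8% of all windows with at least 1 match. The letters therefore did not separate the genes that rose from Defb6, which fell. TGANTCA (AP-1), TTCNNNGAA (STAT) and the NF-kB consensus had no match in the windows of Lcn2, Slpi and Wfdc12.

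Slpi, Wfdc5 and Wfdc12 are neighbours on chromosome 2. Wfdc12 starts 6.49 kb beyond the end of Wfdc5, and Slpi begins 163 kb beyond Wfdc12. Between Wfdc12 and Slpi the annotation holds 8 protein-coding genes, and none had a count in any library. From 50 kb before Wfdc5 to 250 kb after Slpi there were 25 other protein-coding genes. Of these 6 were tested, and 1 was called, Stk4, a kinase of the Hippo pathway, which rose (log2 fold change 0.46, SE 0.11). The potassium channel subunit gene Kcns1 (-0.34, SE 0.45), between Stk4 and Wfdc5, and the syndecan gene Sdc4 (0.28, SE 0.16), beyond Slpi, were not called.

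The defensin cluster held 13 other protein-coding genes from 250 kb before Defb14 to 250 kb after Defb3. Only 1 of them was tested, Xkr5, which fell (-1.75, SE 0.56). Xkr5 entered the test only through the controls (0.476 to 0.708 CPM). Its knockouts (0.0726 to 0.338 CPM) lay below the filter minimum of 0.403 CPM. The windows and the genes named from them were chosen after their values were seen.

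**Figure D4:**
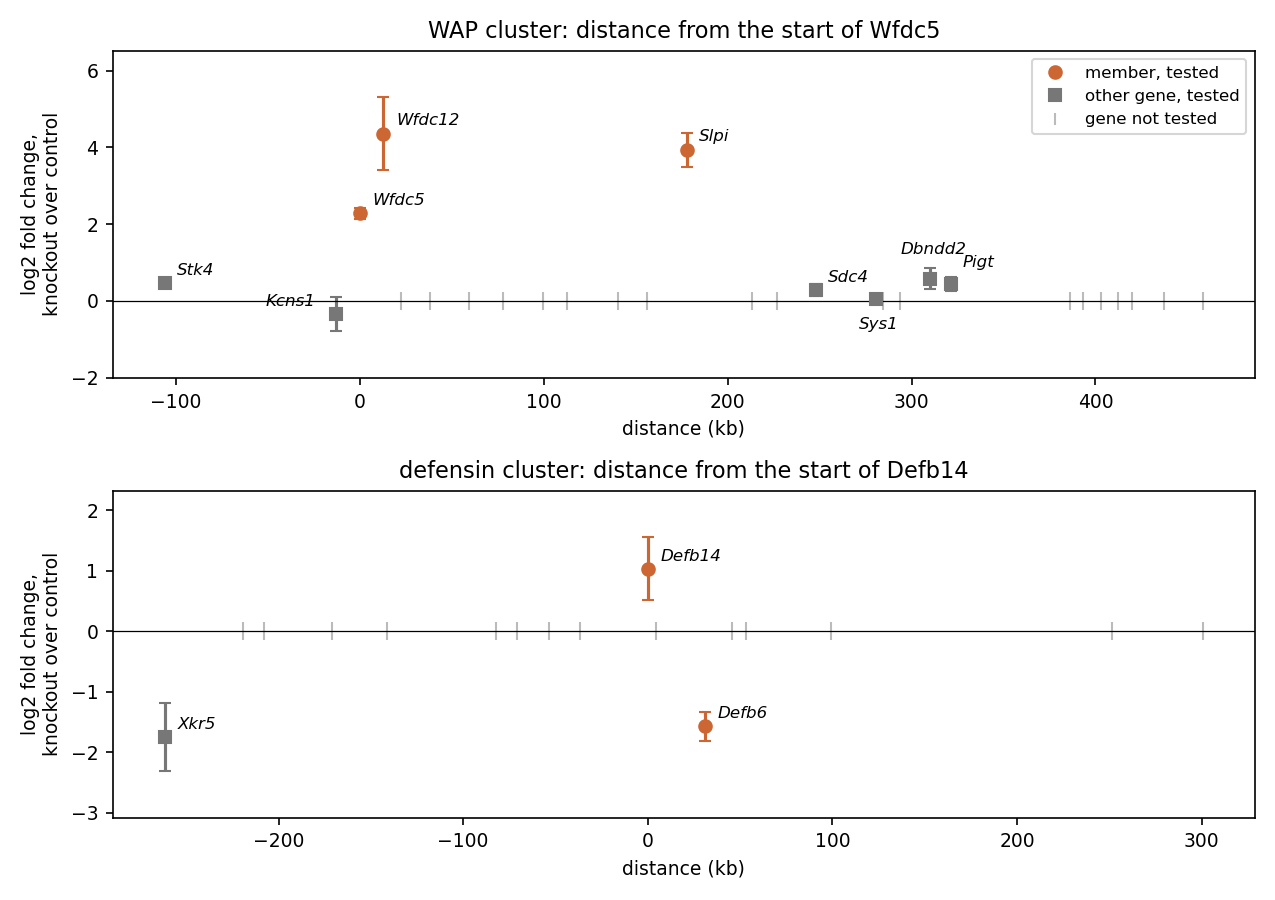
Points give the log2 fold change with its SE for the tested genes of the 2 clusters, against the distance in kb from the start of Wfdc5 (upper panel) or Defb14 (lower panel), and grey ticks at 0 mark genes that were not tested. Wfdc5, Wfdc12 and Slpi stand between 2.28 and 4.36 while the other tested genes of their window stay between -0.34 and 0.58. Defb6 (-1.57) lies below 0, and Defb14 (1.03, SE 0.52), which was not called, lies above it.

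Most other beta-defensin genes had no count, and most other WAP genes had few counts or none. Of 38 other beta-defensin genes 26 had no count in any library, and only Defb2 was tested. Defb2, a defensin of mouse epithelia, had 22, 11 and 33 counts in the controls and 4, 5 and 7 in the knockouts, and fell (log2 fold change -2.19, SE 0.46, adjusted p = 0.0102). Its controls lay above the filter minimum of 0.403 CPM and its knockouts (0.169 to 0.254 CPM) below it. Defb2 therefore entered the test only through the controls. The other 11 with a count held at most 8 counts in any library. Of 16 other WAP genes 6 had no count and 3 were tested. Wfdc18 fell from 59, 51 and 182 counts to 23, 2 and 24 (log2 fold change -2.68, SE 0.76, adjusted p = 0.0289), and its call was lost without control 3, knockout 1 or knockout 3 (-3.10 to -1.98) and with no filter (-2.65, adjusted p = 0.0906). Wfdc21 (0.35, SE 0.54) and Wfdc3 (-0.39, SE 0.17) were not called.

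Other antimicrobial genes of epithelia moved in both directions. Of 18 that had an identifier, 12 were tested, 4 rose, 2 fell and 6 were not called, with a median log2 fold change of -0.13 against -0.02 over all genes tested. As shares, 33.3% rose and 16.7% fell, against 17.4% and 18.8% over all genes tested. S100a9 rose from 9.19 ± 6.81 to 488 ± 375 CPM (5.74, SE 0.96) and S100a8 from 8.88 ± 8.45 to 384 ± 304 CPM (5.44, SE 1.15), both subunits of calprotectin, which withholds zinc and manganese from microbes. S100a8 was not called without control 3 (5.23, adjusted p = 0.0699) or with no filter on low counts (5.48, adjusted p = 0.0722). Without control 3 the number that rose was 2. The number that fell was 1 without control 1, control 3, knockout 1 or knockout 2. Of the peptidoglycan recognition proteins, Pglyrp3 rose from 6.95 ± 1.74 to 20.1 ± 4.90 CPM (1.53, SE 0.24) and Pglyrp4 fell from 77.2 ± 4.16 to 46.1 ± 7.27 CPM (-0.74, SE 0.14). Pglyrp1 fell as well (-1.69, SE 0.51), and Pglyrp2 was not called (-0.09, SE 0.39).

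Of the other protease inhibitors 25 were in the table and 22 were tested. Of these 8 rose, 2 fell and 12 were not called, with a median of 0.64. That made 36.4% higher and 9.09% lower, against 17.4% and 18.8% over all genes tested. Serpina3n, an inhibitor of serine proteases, rose from 2.59 ± 0.801 to 54.1 ± 11.7 CPM (4.39, SE 0.28). Spink5, the inhibitor of epidermal kallikreins, rose from 262 ± 58.2 to 1138 ± 332 CPM (2.12, SE 0.28), and Spint1, an inhibitor of matriptase, from 58.7 ± 3.09 to 102 ± 8.54 CPM (0.80, SE 0.11). Cst6, cystatin E/M, fell from 2658 ± 309 to 959 ± 199 CPM (-1.47, SE 0.22). Without control 1, control 3, knockout 1 or knockout 2, 1 gene of this list fell.

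The genes that act on these proteins, or through which they act, were examined next. Of 21 receptors and proteases 14 were tested, 6 rose, 3 fell and 5 were not called, with a median of 0.61. In shares, 42.9% rose and 21.4% fell, against 17.4% and 18.8% over all genes tested. Klk5, a kallikrein that cuts the cathelicidin precursor in skin, rose from 70.9 ± 7.25 to 144 ± 15.9 CPM (1.03, SE 0.13) although Camp itself was at the limit of detection. The membrane protease St14, matriptase, rose by 0.72 (SE 0.11), the proprotein convertase Furin by 0.91 (SE 0.16) and the purinergic receptor P2rx7 by 0.86 (SE 0.15). The genes that fell were Ccr6, the chemokine receptor for beta-defensins (-2.87, SE 0.58), Ccr2 (-2.40, SE 0.58) and Slc22a17, a proposed receptor of lipocalin 2 (-0.63, SE 0.17). They were named because they are all that fell. Without knockout 1, 1 gene of the list was called lower. Of 11 T cell markers tested, 9 fell and 1 rose, summing to between 209 and 404 CPM in the controls and between 152 and 211 CPM in the knockouts. Elane and Ctsg, the neutrophil proteases that Slpi inhibits, had no count in any library.

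Of the genes known to induce epidermal antimicrobial genes, more rose than fell. Of 35 such genes 32 were tested, 19 rose, 2 fell and 11 were not called, with a median of 0.53. The shares were 59.4% higher and 6.25% lower, against 17.4% and 18.8% over all genes tested. The list was chosen with earlier results of these data known, so nothing is read from the comparison. Among those that rose were the interleukin 36 genes Il1f8 (from 4.66 ± 1.02 to 41.5 ± 13.6 CPM, a log2 difference of 3.15, SE 0.29) and Il1f9 (2.53, SE 0.27), Stat3, the transcription factor below the interleukin 22 receptor (from 151 ± 15.9 to 349 ± 37.5 CPM, 1.21, SE 0.14), and Il22ra1, a chain of that receptor (1.63, SE 0.20). Of the receptor chains for the interleukin 17 family, Il17ra (0.47) and Il17rc (0.55) rose, and Il17re was not called (-0.14, SE 0.16). Cytokines of the interleukin 17 and 22 families were scarce. Il22 had 0 counts in every control and 1, 0 and 1 in the knockouts, and Il17a had 13, 4 and 8 counts in the controls and 10, 2 and 13 in the knockouts. Il17f had 6, 2 and 9 counts in the controls and 12, 12 and 10 in the knockouts, which was not tested, and its groups did not overlap in CPM. These genes were named after their values were seen, as were Tnf (-0.98, SE 0.29) and Cyp27b1 (-1.10, SE 0.35), the 2 that fell. Without control 3, knockout 1 or knockout 2 edgeR called neither of these 2, and without each other library 1 gene of the list was called lower.

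**Figure D5:**
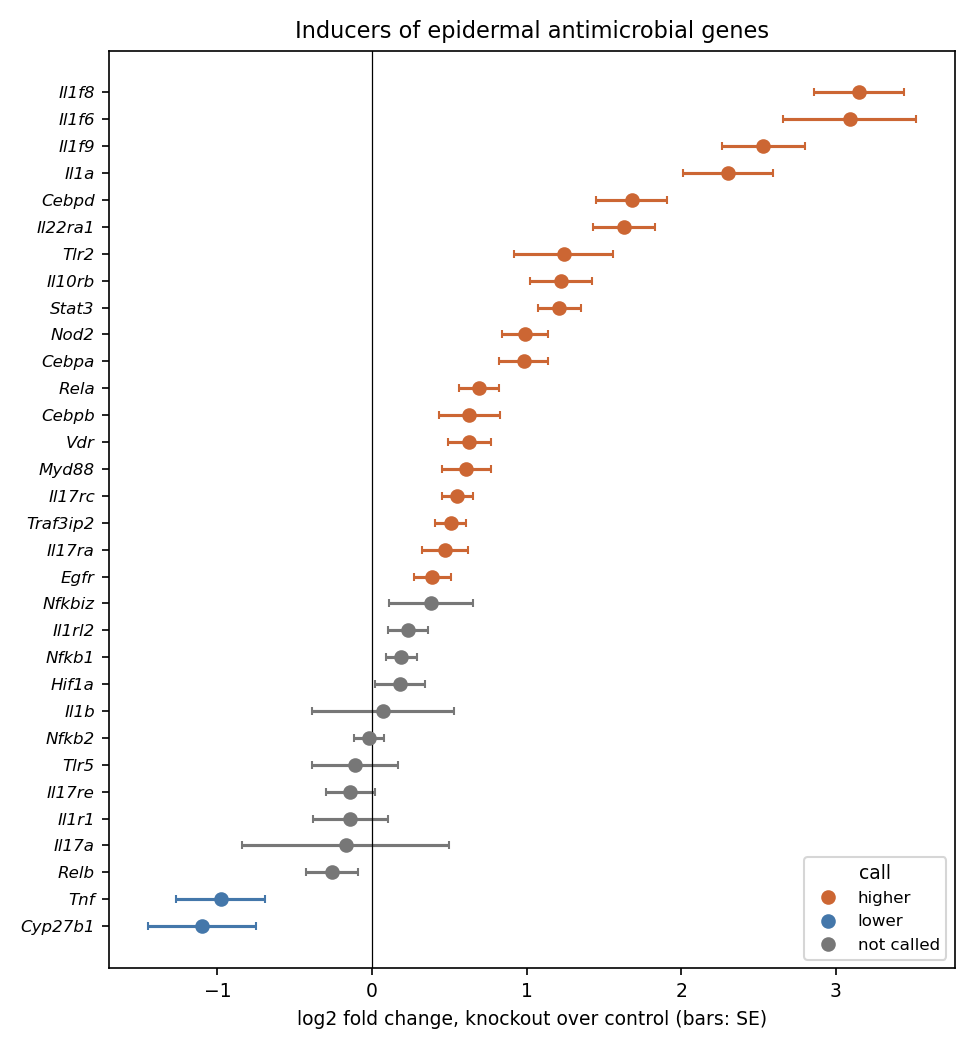
Each of the 32 tested inducers is a point at its log2 fold change (knockout over control) with its SE, coloured by call. Il1f8 (3.15) is highest, Cyp27b1 (-1.10) lowest, and 19 are called higher.

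Markers of other cells that make these proteins were measured in the same libraries. Beside the marker counts here and below, 17.4% of all genes tested rose and 18.8% fell. Of 15 neutrophil markers 5 had no count in any library (Ly6g, Elane, Ctsg, Retnlg and Cd177), and 13, all but Mmp9 and Cxcr2, held at most 12 counts in any library. Those 13 summed to between 0.215 and 0.668 CPM in the controls and between 0.436 and 0.507 CPM in the knockouts. Cxcr2, a receptor of neutrophil chemokines, rose from 0.888 ± 0.869 to 21.5 ± 11.4 CPM (4.55, SE 0.71), and Mmp9, the partner of lipocalin 2, was not called (0.62, SE 0.40).

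Of 12 macrophage and monocyte markers 10 were tested and 4 rose, with sums between 33.2 and 70.3 CPM in the controls and between 48.7 and 70.1 CPM in the knockouts. The 4 were C1qa (log2 fold change 2.06), C1qb (1.66) and C1qc (1.33), the chains of complement C1q that macrophages make, and Cd14 (0.94), a co-receptor for lipopolysaccharide, and in each all knockouts lay above all controls. Csf1r (0.40, SE 0.35) and Cd68 (-0.60, SE 0.35), a receptor and a lysosomal protein of these cells, were not called. Adipocyte markers, of which Fabp4 alone was tested (-0.70, SE 0.98), stayed at or below 7.77 CPM in sum. Of 9 Langerhans cell markers 1 rose and 2 fell, of 8 fibroblast markers 2 fell, and the 1 mast cell marker tested fell. The part of these cells in the rises of Lcn2 and Slpi was not tested beyond these values.

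Most sebocyte markers and most hair sheath and shaft markers fell, while markers of the upper follicle moved in both directions. Of 10 sebocyte markers 7 fell and 3 were not called, with sums between 1345 and 1604 CPM in the controls and between 562 and 982 CPM in the knockouts. Of 12 hair sheath and shaft markers 11 fell, with sums from 372 to 587 CPM against 164 to 224 CPM. Gata3, which was not called, held 188 to 267 CPM of the control sums and 138 to 199 CPM of the knockout sums. The sums thus understate the fall of the other markers, and the median log2 fold change of the 12 was -5.69. Of 8 markers of the upper follicle 3 fell (Lrig1, Cst6 and Gata6) and 1 rose, with sums from 6877 to 7509 CPM against 5688 to 7569 CPM. The 1 that rose was Krt17, from 1893 ± 60.0 to 3409 ± 807 CPM, a large part of these sums. The part of these cells in the fall of Defb6 was not tested. In bulk RNA, fewer cells of a type and less RNA per cell cannot be told apart.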

How the data were processed

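The authors deposited raw counts for each gene in all 6 libraries. The submitters' processing notes list the tools TopHat (1.3.3), featureCounts (1.4.6) and Cuffdiff (1.3.0) and the build GRCm38, with no settings. Strand use, multi-mapped reads and the gene annotation are not given in the sources used here. Symbols, coordinates and exon lengths came from GENCODE M21 (GRCm38), which named 98.1% of identifiers, and promoters from RefSeq (GRCm38.p6), with an entry for 6 of the 10 genes. Identifiers with no symbol held 0.0517% to 0.118% of the counts of a library and stayed in the fit.

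Differential expression was computed with edgeR 4.0.16 under R 4.3.3 (TMM, filterByExpr by group, robust quasi-likelihood fit, group only, all 6 libraries) and tested on simulated data. SE is the log2 fold change over the root of the F statistic. The genes, lists and tests were chosen with earlier results of these data known. Named were the 10 genes, Lama3, from each list up to 4 called genes by smallest p (1 tested gene where none was called), and from each marker list the 2 most abundant, not all of which are described. Alternatives used DESeq2 1.42.0 and limma 3.58.1, other scalings and filters, a replicate block, sex, each library left out, and a stricter threshold. Of 222 list entries 220 were found. The labels name separate mice, and no 2 columns were identical.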

Additional observations from a re-analysis of the deposited data

How the results depend on the processing

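Of 103 results of the 7 tested genes under the alternatives, 100 kept direction and call, and none turned direction. These include the stricter threshold, which reuses the main fit and so could not turn a direction. Wfdc12 lost its call with limma-voom and at an adjusted p under 0.01 (0.0118), and Defb14 gained one without control 1. The filter of 1 CPM in 3 libraries removed Wfdc12 and Defb14 from the test and left 3 of the 10 genes higher. Over the settings that tested each gene, the log2 fold change lay between 3.44 and 4.06 for Lcn2, 3.55 and 4.32 for Slpi, 2.13 and 2.39 for Wfdc5, 3.50 and 4.98 for Wfdc12, and -1.72 and -1.36 for Defb6. Counts of the 10 genes called higher were 4 to 5 and lower 1 to 1 when a library was left out.

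At an adjusted p under 0.01, 1115 genes rose and 1009 fell, other antimicrobial genes gave 2 higher and 1 lower, inducers 0 lower, receptors and proteases 1 lower, other inhibitors 5 higher and 1 lower, other beta-defensins and other WAP genes 0 lower, and Lama3 (-0.53) was not called. Upper-quartile factors gave 1756 higher genes, 2 lower WAP genes and Epcam at -0.06. With no filter, inducers and other inhibitors gave 1 lower and other WAP genes 0. With 1 CPM in 3 libraries, other antimicrobial genes and inducers gave 1 lower and other beta-defensins 0. With sex as a covariate, other antimicrobial genes and inducers gave 1 lower, Epcam -0.00 and Col3a1 0.12. Inducers gave 1 lower with DESeq2 and limma-voom.

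Leaving out a library gave 1586 to 2754 genes higher and 1714 to 2771 lower, other antimicrobial genes 2 to 4 higher and 1 to 2 lower, inducers 0 to 1 lower, receptors and proteases 1 to 3 lower, other inhibitors 1 to 2 lower, other WAP genes 0 to 1 lower, and Lama3 -0.62 to -0.42. Of the markers named by the rule, Trbc2 ranged from -0.32 to 0.03, Epcam from -0.05 to 0.27 and Col3a1 from -0.88 to 0.35. The causes were not tested.

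With the replicate number as a block (replicate block), 2422 genes rose and 2701 fell, 1 inducer was lower, and S100a8 was not called (5.57, adjusted p = 0.0611). Same-numbered libraries correlated in their deviations from the group mean at -0.114, -0.0979 and 0.419, and only number 3 correlated best with its own. With 3 libraries per group these correlations cannot show whether the numbers pair the mice, and the labels state no pairing. Counts under 10 in at least 1 library limit Camp, Defb3, Defb4, Defb14, Wfdc12 and Slpi.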
